A study of Mus musculus with 9 samples.

Results

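The genes described here are 10 immediate early genes, Fos, Fosb, Junb, Egr1, Egr2, Egr4, Arc, Npas4, Nr4a1 and Ier2. They form a list of named genes, chosen with earlier results of these data known. Each was measured by 1 probe set assigned to that gene alone, so all 10 were found among the 18820 genes of the array. Hippocampal RNA from C57BL/6 mice, 12 to 14 weeks old, was measured on 9 Affymetrix arrays in 3 groups of 3 biological replicates. Control mice were compared with mice given a tibia fracture under surgery and with mice that received Maresin 1 ahead of that operation. Maresin 1 is a lipid signal derived from docosahexaenoic acid that promotes the resolution of inflammation. Tissue was taken 72 h after the operation, and the labels name no treatment for the control mice. The labels do not state the dose and route of Maresin 1 or how long ahead it was given, nor whether an array holds RNA of 1 mouse or of a pool. Whole hippocampus was used, so less RNA per cell and fewer cells of a type cannot be told apart.

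Immediate early genes are transcribed within minutes of a strong stimulus, without the need for new protein synthesis, and their messages decay fast. In neurons, calcium entry and the ERK cascade act on the factors SRF with its Elk partners, CREB and MEF2, which already sit on these promoters. Most of the genes encode transcription factors that pass the signal on to later genes, and Arc encodes a protein that acts directly at synapses. In the hippocampus their messages are read as a mark of recent firing, since exploration, handling, seizures and new surroundings all raise them.

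The promoters of Fos, Egr2, Nr4a1 and Npas4 are shown as examples. Fos, Egr2 and Npas4 varied widely between arrays, and Npas4 followed most other members less closely. Nr4a1 had a 1.89-fold range, narrower than the 2.64-fold range of Fosb, which is not shown. Its window holds the most matches of those shown. The sequences are the 250 bases before the annotated start, read 5′ to 3′ on the gene's strand, from RefSeq on build GRCm38.p6. Capitals mark matches to TGACG, the core of the CREB site, to the CArG box bound by SRF, and to GCGNGGGCG, a form of the site bound by Egr proteins. Fos lies on the plus strand at chr12:85473640-85473889, Egr2 on the plus strand at chr10:67537619-67537868, Nr4a1 on the plus strand at chr15:101266596-101266845, and Npas4 on the minus strand at chr19:4989972-4990221.
Fos: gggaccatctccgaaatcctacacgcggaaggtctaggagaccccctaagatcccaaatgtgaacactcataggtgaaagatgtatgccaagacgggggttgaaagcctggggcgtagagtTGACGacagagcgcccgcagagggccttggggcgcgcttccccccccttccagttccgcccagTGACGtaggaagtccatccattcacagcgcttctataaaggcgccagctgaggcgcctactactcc
Egr2: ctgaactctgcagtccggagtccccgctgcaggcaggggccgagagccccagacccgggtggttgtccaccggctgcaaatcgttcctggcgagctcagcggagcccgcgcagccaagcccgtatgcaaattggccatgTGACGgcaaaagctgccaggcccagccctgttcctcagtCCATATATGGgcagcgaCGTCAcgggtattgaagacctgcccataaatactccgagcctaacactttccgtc
Nr4a1: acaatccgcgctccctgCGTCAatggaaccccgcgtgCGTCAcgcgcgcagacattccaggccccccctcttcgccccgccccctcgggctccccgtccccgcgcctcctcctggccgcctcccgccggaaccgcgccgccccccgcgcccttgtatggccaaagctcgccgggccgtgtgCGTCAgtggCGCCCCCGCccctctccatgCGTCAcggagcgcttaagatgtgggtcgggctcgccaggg
Npas4: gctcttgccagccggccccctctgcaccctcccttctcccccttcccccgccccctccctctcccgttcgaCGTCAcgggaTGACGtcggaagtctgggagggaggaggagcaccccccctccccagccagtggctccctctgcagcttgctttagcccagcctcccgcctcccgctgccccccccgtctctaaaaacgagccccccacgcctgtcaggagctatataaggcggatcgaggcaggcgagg

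Windows were listed for 7 of the 10 members, with none for Arc, Egr1 and Ier2, and 5 of the 11 windows belonged to Egr2. Of these, 3 overlap one another and hold the same 3 matches, and 1 of those 3 is shown. All motifs were searched on both strands. TGACG was present in at least 1 window of all 7 genes and in 9 of the 11 windows, against 17.8% of the 32851 windows of this length listed for all genes. Nr4a1 held 4 matches, beginning at -233, -213, -69 and -40 from the start. Fos held 2, at -129 and -66, and Npas4 held 2, at -179 and -169. The full palindrome TGACGTCA, which would include 2 overlapping TGACG matches, was found in 0 of the 11 windows and in 1.55% of all windows. The CArG box was found in Egr2 alone, in 4 of its 5 windows, against 1.47% of all windows. The overlapping Egr2 windows count the same letters more than once, here and in the count for TGACG. GCGNGGGCG was found in Fosb and Nr4a1, against 4.7% of all windows. A match is a run of letters and not a measured binding site.

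Before the results, 2 features of the arrays need to be stated. The median deposited intensity ran from 54.1 in surgery replicate 1 to 100.1 in control replicate 1, so the arrays were quantile normalised before they were compared. Control replicates 2 and 3 stood apart in markers of the choroid plexus, which makes the cerebrospinal fluid. The mean of 19 such markers was 2.34 and 2.68 above its mean over all arrays on the log2 scale in these controls, and -0.85 to -0.61 in the other 7 arrays. Results against control are therefore also given without these 2 arrays, which leaves control replicate 1 as the single control, with a spread assumed like that of the other groups. That array was the highest control for 9 of 10 members, so a lower difference against it follows from its own values. Of the markers measured, 14 of 14 dentate granule neuron, 9 of 9 CA1, 9 of 9 CA3 and 11 of 11 interneuron genes lay above background. So did 71% of all genes, 10 of 10 markers of the neighbouring thalamus and cortex and 10 of 10 meninges fibroblast markers. These counts therefore do not identify the tissue. Background here is 5.86 on the log2 scale, the 95th percentile of the mean levels of 990 olfactory receptor genes.

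All levels below are log2(normalised intensity + 16), and all differences are on that scale. Levels of different genes were not compared, since probe sets differ in brightness. Errors of group means are SD with n = 3 arrays, and differences carry the standard error (SE) and 95% confidence interval of the limma fit over all 9 arrays. Adjusted p-values are Benjamini-Hochberg values over all 18820 genes.

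The data show no member that separated the 3 groups. None of the 10 members passed an adjusted p of 0.05 in any of the 3 comparisons or in the F test over all groups, and none passed an unadjusted p of 0.05 either. What the members shared was a difference between arrays of the same group. In each group 1 array was high for nearly all of them. Control replicate 1 was the highest control for 9 of 10 members, surgery replicate 3 the highest of its group for 10 of 10, and Maresin 1 replicate 1 the highest of its group for 10 of 10.

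**Figure D1:**
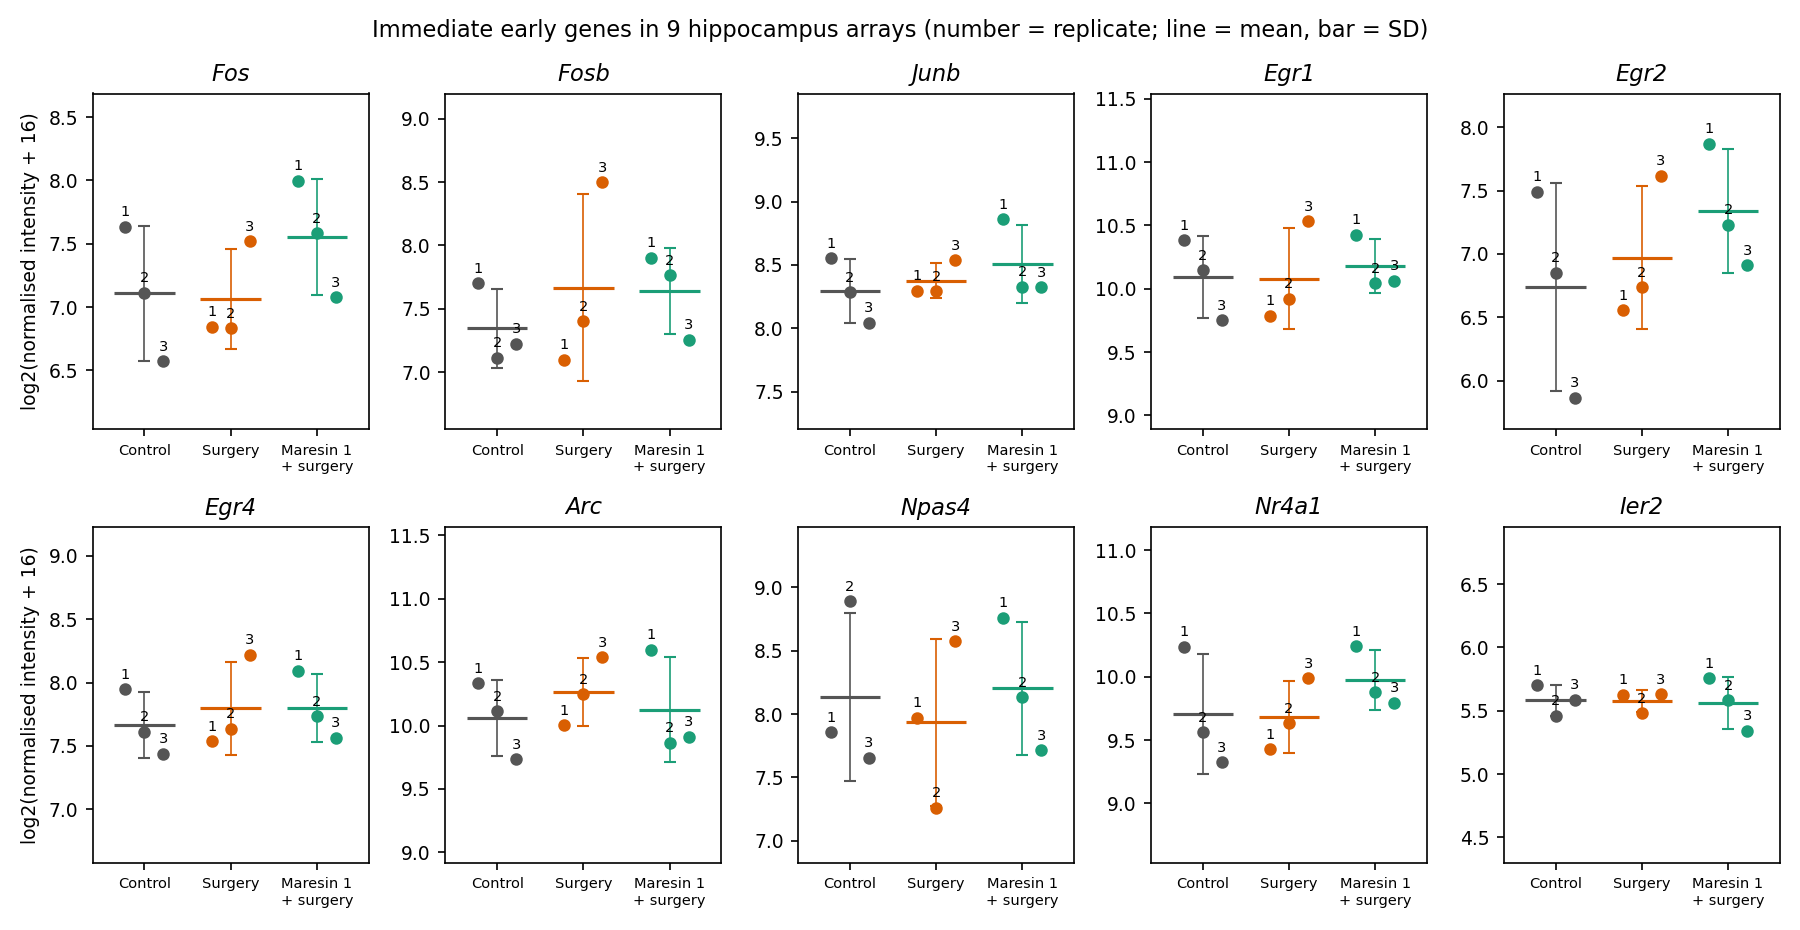
Level of each of the 10 genes, as log2(normalised intensity + 16), in the 3 control, 3 surgery and 3 Maresin 1 with surgery arrays. Points are arrays marked with their replicate number, lines are group means and bars are SD. Replicate 1 of the controls, 3 of surgery and 1 of Maresin 1 lie at the top of their groups for nearly all genes, and all groups overlap.

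The Fos and Jun families form the AP-1 transcription factor, in which a Fos protein pairs with a Jun protein. Fos was at 7.64, 7.11 and 6.57 in the control arrays, 6.85, 6.83 and 7.52 after surgery, and 7.997, 7.58 and 7.08 with Maresin 1 before surgery. The highest Maresin 1 array lay above all others, but the lowest fell inside the range of both other groups. Group means were 7.11 ± 0.53 in control, 7.07 ± 0.39 after surgery and 7.55 ± 0.46 with Maresin 1. The Fos difference between Maresin 1 and surgery was 0.49, a 1.4-fold ratio (SE 0.27, 95% interval -0.10 to 1.07, unadjusted p = 0.0953, adjusted p = 0.859 by limma). This was the smallest unadjusted p of any member in any comparison.

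Fosb, whose truncated product is known to outlast the stimulus by days, was at 7.70, 7.11 and 7.23 in control. It stood at 7.10, 7.40 and 8.50 after surgery and at 7.90, 7.77 and 7.26 with Maresin 1. A single array, surgery replicate 3, carried the high surgery mean of 7.67 ± 0.74, while the other 2 surgery arrays, at 7.10 and 7.40, lay among or just below the controls. The array does not separate the spliced forms of Fosb. Junb, the AP-1 partner most often induced with Fos, was at 8.55, 8.28 and 8.04 in control, 8.30, 8.29 and 8.54 after surgery, and 8.86, 8.33 and 8.33 with Maresin 1. Its spread was narrower than that of Fos, at a 1.76-fold range over the 9 arrays against 2.68-fold.

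The Egr genes encode zinc finger factors that bind GC-rich sites, and Egr1 is needed for lasting potentiation at hippocampal synapses. Egr1 was at 10.38, 10.15 and 9.75 in control, 9.79, 9.92 and 10.53 after surgery, and 10.43, 10.05 and 10.06 with Maresin 1. The 3 group means, 10.09 ± 0.32, 10.08 ± 0.40 and 10.18 ± 0.22, lay closer together than the arrays of any 1 group. Egr2, better known for its role in myelination but also induced in neurons, varied most of all members, with a 4.01-fold range. It was at 7.49, 6.85 and 5.86 in control, 6.56, 6.74 and 7.62 after surgery, and 7.87, 7.23 and 6.91 with Maresin 1. Control replicate 3 stood at the background level and alone set the low control mean of 6.74 ± 0.82. The Egr2 difference between Maresin 1 and control was 0.60, a 1.52-fold ratio (SE 0.37, 95% interval -0.20 to 1.40, adjusted p = 0.586 by limma). Without control replicate 3 it was 0.16. Egr4 was at 7.95, 7.61 and 7.44 in control, 7.54, 7.63 and 8.22 after surgery, and 8.09, 7.74 and 7.56 with Maresin 1, so that all 3 groups overlapped.

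Arc encodes a capsid-like protein that drives the removal of AMPA receptors from synapses, and its message travels into dendrites. Arc was at 10.33, 10.11 and 9.73 in control, 10.003, 10.25 and 10.54 after surgery, and 10.60, 9.87 and 9.91 with Maresin 1. Group means were 10.06 ± 0.30, 10.26 ± 0.27 and 10.13 ± 0.41, with the highest value of all in Maresin 1 replicate 1. Npas4, a factor induced by calcium entry in neurons that recruits inhibitory synapses, is the most neuron-specific member. It was at 7.86, 8.89 and 7.66 in control, 7.97, 7.26 and 8.58 after surgery, and 8.76, 8.13 and 7.72 with Maresin 1. Npas4 departed from the other members in the control group, where replicate 2 and not replicate 1 was the highest array. It also had its lowest value in surgery replicate 2, and spanned a 3.1-fold range.

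Nr4a1, an orphan nuclear receptor induced in neurons and in vessel and immune cells, was at 10.24, 9.56 and 9.32 in control. It stood at 9.43, 9.63 and 9.99 after surgery and at 10.24, 9.88 and 9.79 with Maresin 1. The Maresin 1 arrays lay between 9.79 and 10.24, and control replicate 1 also stood at 10.24. Ier2, a nuclear protein of the early growth response, ran from 5.34 to 5.76 and lay below the background level in 9 of 9 arrays. Its values can therefore not be read as a level of the message, and its narrow 1.33-fold range is that of a dim probe set. Ier2 still enters the counts, medians and scores over 10 members. Its values in surgery replicates 1 and 3 were nearly equal, at 5.628 and 5.629.

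**Figure D2:**
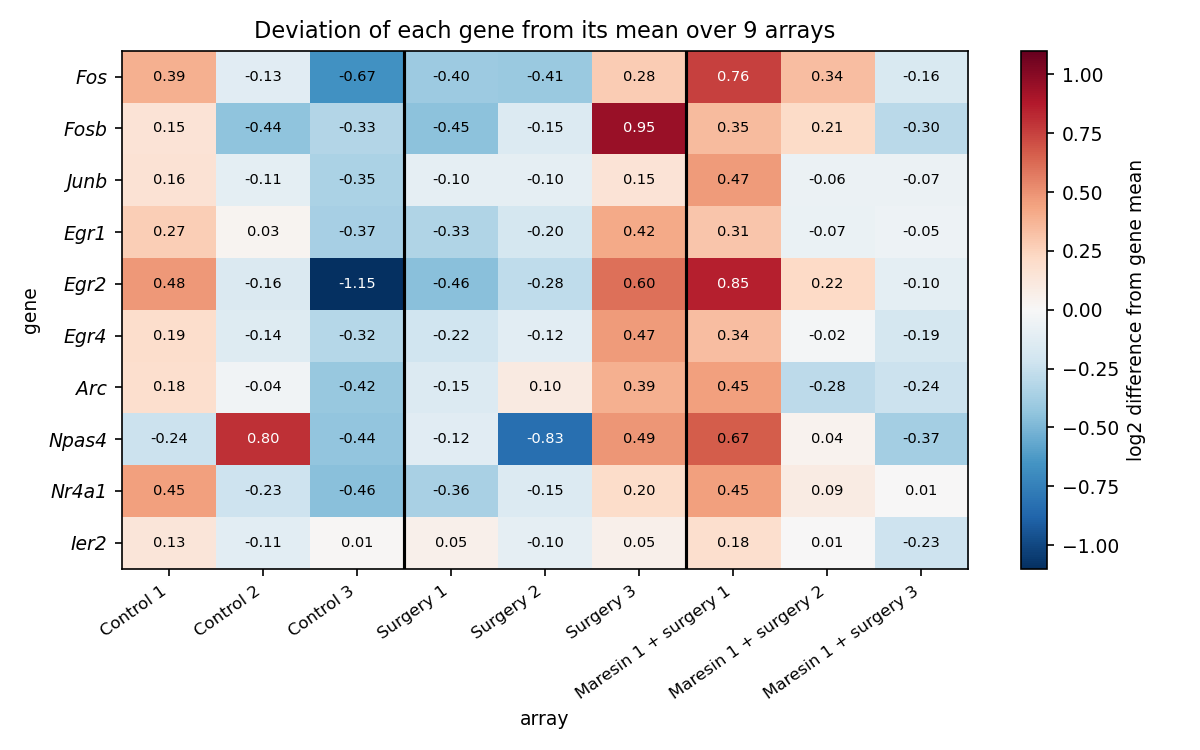
Difference of each gene from its own mean over the 9 arrays, in log2 units, with red above and blue below the mean. Columns are arrays in 3 groups split by black lines, and each cell prints its value. Control replicate 1, surgery replicate 3 and Maresin 1 replicate 1 are red for nearly all genes, while control replicate 3 is blue for all but Ier2.

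Counted over the 10 members, surgery replicate 3 and Maresin 1 replicate 1 lay above the gene's median of the 9 arrays for 10 of 10, and control replicate 1 for 9. Control replicate 3 and Maresin 1 replicate 3 did so for 0, and surgery replicates 1 and 2 for 1 each. The lowest array of all was control replicate 3 for 7 members. A member score, the mean difference of the 10 genes from their means over the arrays, was 0.22, -0.05 and -0.45 in the controls. It was -0.25, -0.22 and 0.40 after surgery, and 0.48, 0.05 and -0.17 with Maresin 1. The spread within each group (SD 0.33, 0.37 and 0.33) exceeded the distance between the group means of -0.09, -0.03 and 0.12.

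Array brightness was set beside the score. Control replicate 1, with the highest control score, was also the brightest control at a median deposited intensity of 100.1, against 73.2 and 70.3. Surgery replicate 3, with the highest surgery score of 0.40, was also the brightest surgery array, at 85.0. Surgery replicate 2 stood at 83.2 with a score of -0.22, and replicate 1 at 54.1 with a score of -0.25. In the Maresin 1 group brightness was 78.1 in replicate 1, which had the highest score, 69.0 in replicate 2, and 88.7 in replicate 3, which had the lowest. The part of brightness in the scores was not tested. With each array scaled to one median in place of quantile normalisation, the same 3 arrays had the highest scores of their groups, 0.27, 0.48 and 0.48. The same held with cyclic loess, at 0.23, 0.40 and 0.47.

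**Figure D3:**
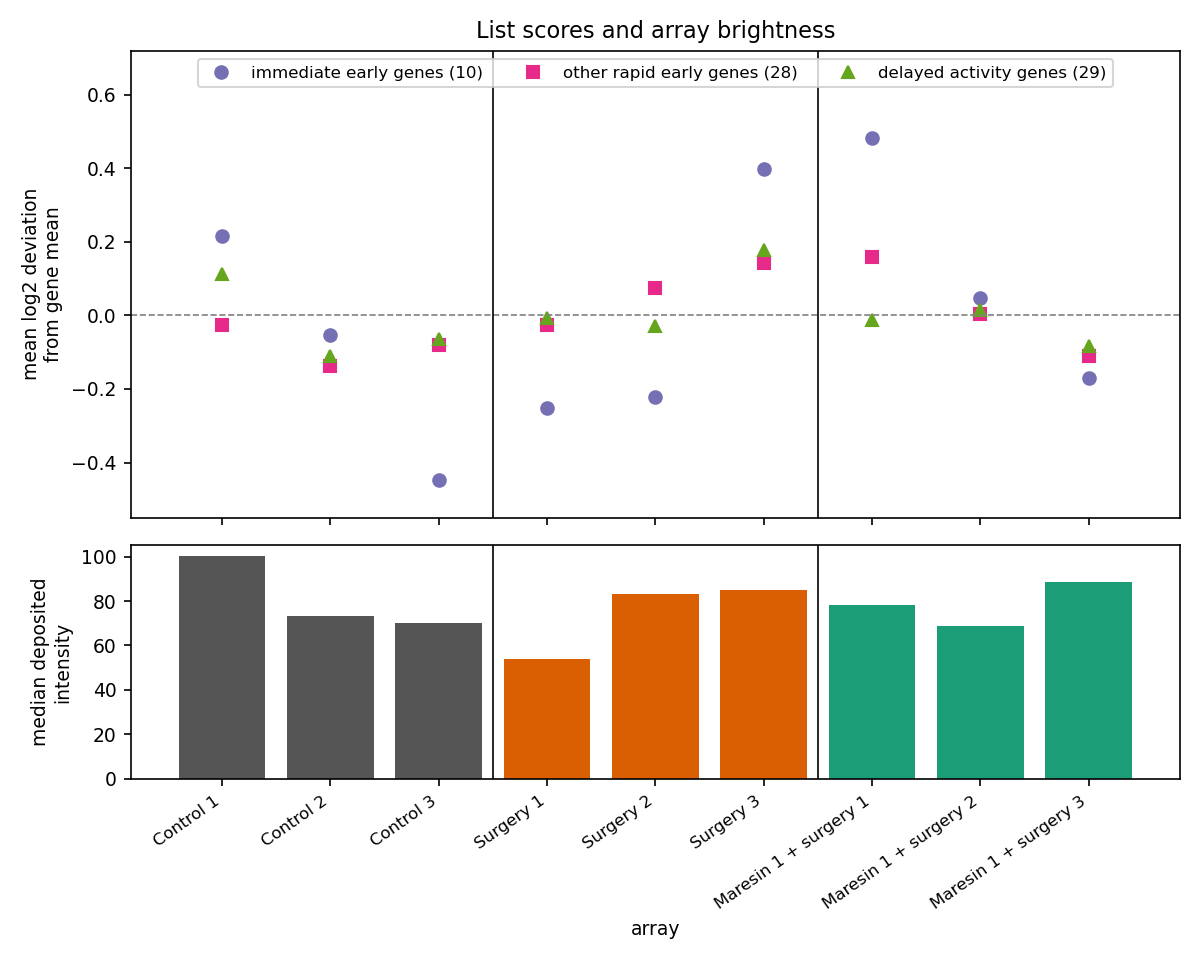
Upper panel, mean difference from the gene means, in log2 units, of the 10 immediate early genes (circles), 28 other rapid early genes (squares) and 29 delayed activity genes (triangles) in each array. Lower panel, median deposited intensity of each array. The immediate early genes peak in control replicate 1, surgery replicate 3 and Maresin 1 replicate 1, at 0.22, 0.40 and 0.48. The brightest arrays of the groups are control replicate 1, surgery replicate 3 and Maresin 1 replicate 3.

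Members rose and fell together across the 9 arrays. All 45 pairs had a Pearson r above 0, from 0.322 to 0.951, with a median of 0.720 and a median Spearman rho of 0.717. In an exact two-sided permutation test over the 362880 orders of the arrays, 22 of 45 pairs passed an adjusted p of 0.05 for r and 20 for rho, with Benjamini-Hochberg adjustment over the 45 pairs. Fos and Egr2 had the highest r, at 0.951, with rho at 0.917 (exact p = 0.000141 for r and 0.00131 for rho, adjusted p = 0.00211 and 0.00984). Without the 2 arrays farthest from the median of Fos their r was 0.928. None of the 9 pairs with Npas4 passed, with r from 0.322 to 0.607, and none of the 9 with Ier2, with r from 0.322 to 0.606.

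Leaving out, for each pair, the 2 arrays farthest from the median of the gene listed earlier gave a median r of 0.626, and 19 pairs stayed above 0.7, where 25 had been with all arrays. The relation of Npas4 to Fosb and to Arc rested on those arrays, as r fell to -0.195 and -0.0241. With the group means taken out, the median r of the 45 pairs was 0.841, so the members moved together within groups, pooled over the 3. This measure was not computed for pairs of all genes. With the group means kept, 55.6% of member pairs had an r over 0.7, against 3.42% of all pairs of the 13363 genes above background. Among the 251 genes above background with an SD over the arrays of at least 0.3 the share was 18.6%. Junb, Egr1, Egr4 and Ier2, with an SD of 0.231, 0.281, 0.271 and 0.128, lay below that cut. All pairs share the same 9 arrays and their normalisation.

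**Figure D4:**
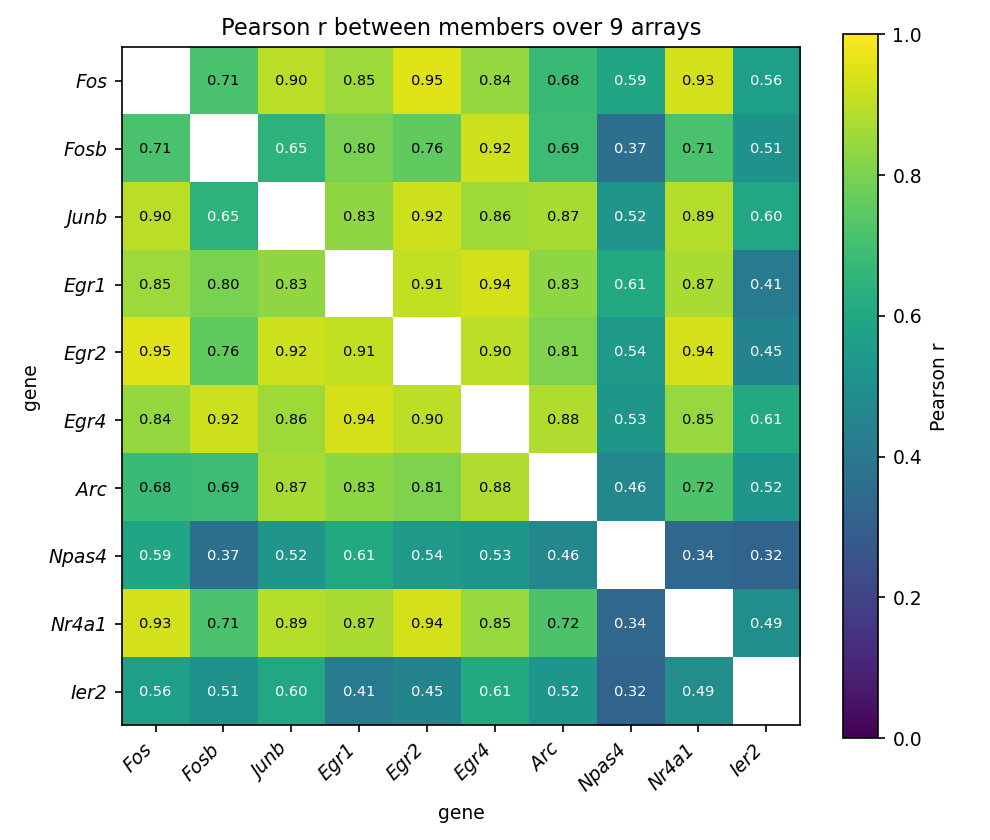
Pearson r over the 9 arrays for each pair of the 10 genes, printed in each cell, with colour from 0 (dark) to 1 (yellow). The rows of Npas4 and Ier2 are darker than the others, with no r above 0.607, while Fos and Egr2 reach 0.951.

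The spread of the members within groups was large for this array. The residual SD was 0.465 for Fos, 0.641 for Egr2 and 0.619 for Npas4, against a median of 0.107 over all genes. Apart from Ier2, at the 75.5th percentile of all genes, the members lay between the 96.4th percentile (Junb) and the 99.8th (Egr2). The intervals of the differences are wide in turn.

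Surgery was compared with control to ask whether these genes differed 72 h after the fracture. Of the 10 members 5 were higher and 5 lower, with a median difference of 0.04, and a median over all genes of 0.02 with 58.4% of genes above 0. Without Ier2, which lay below background, 5 of 9 were higher, with a median of 0.08. Differences ran from -0.20 for Npas4 (95% interval -0.96 to 0.57) to 0.32 for Fosb (95% interval -0.31 to 0.95), with adjusted p from 0.886 to 0.997 by limma. Fos differed by -0.04 (SE 0.27), Egr1 by -0.01 (SE 0.18), Nr4a1 by -0.02 (SE 0.20) and Arc by 0.20 (SE 0.19). Of all genes 0% were called at the adjusted threshold and 6.21% had an unadjusted p under 0.05 (3.9% higher and 2.31% lower), against 0 members at either. The groups overlapped for all 10 members, while they did not overlap for 11.5% of all genes. The direction of the members' median depended on single arrays: it was -0.09 without surgery replicate 3, -0.11 without control replicate 3 and 0.23 without control replicate 1. Against control replicate 1 alone, 1 of 10 members was higher and the median was -0.16. With the choroid plexus score as a covariate and all 3 controls, 2 of 10 were higher, with a median of -0.15. That score differs mainly between control replicates 2 and 3 and all other arrays. With median scaling, which moved the median of all genes to 0.10, 8 of 10 were higher.

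Maresin 1 with surgery was compared with control. Here 9 of 10 members were higher, Ier2 being the exception, with a median of 0.17, against -0.00319 over all genes and 49% of genes above 0. Without Ier2 the median was 0.21. Egr2 differed by 0.60, Fos by 0.44 (SE 0.27, 95% interval -0.14 to 1.03), Fosb by 0.30 (SE 0.29), Nr4a1 by 0.26 (SE 0.20) and Junb by 0.21 (SE 0.15). Egr1, Egr4, Arc and Npas4 differed by 0.07 to 0.13. Adjusted p ran from 0.584 to 0.966 by limma, and the groups overlapped for all 10, where 14.3% of all genes did not overlap. At the adjusted threshold 0.085% of all genes were called, and 11.5% had an unadjusted p under 0.05 (5.87% higher and 5.61% lower), with 0 members in either count. The count of higher members was 9 with median scaling, with cyclic loess and with no normalisation. It was 5, with a median of 0.01, without Maresin 1 replicate 1. It was 2, with a median of -0.11, with the choroid plexus covariate, and 1, with a median of -0.15, against the single control replicate 1. Marker lists of cell types went both ways in the same comparison. Of dentate granule neuron genes 12 of 14 were higher, at a median of 0.195, and 16 of 16 endothelial genes were, at 0.29. Lower were 7 of 9 CA1 genes, at a median of -0.07, 6 of 9 CA3 genes and 6 of 11 interneuron genes. So were 9 of 10 meninges fibroblast genes and 19 of 19 choroid plexus genes. None of these markers passed the adjusted threshold, and their part in the members' values was not tested.

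The Maresin 1 group was also set against surgery alone. Control arrays enter this comparison through the joint quantile normalisation and the shared estimate of the spread. Members were higher in 7 of 10, with a median of 0.11, against -0.02 over all genes and 41.7% of genes above 0. Without Ier2, 7 of 9 were higher, with a median of 0.13. Next to Fos, at 0.49, stood Egr2 at 0.36 (SE 0.37), Nr4a1 at 0.29 (SE 0.20), Npas4 at 0.27 (SE 0.35) and Junb at 0.13 (SE 0.15). Arc differed by -0.14 (SE 0.19, 95% interval -0.55 to 0.28) and Egr4 by 0.00093 (SE 0.18, 95% interval -0.40 to 0.40). Adjusted p ran from 0.859 to 0.999 by limma. Of all genes 0% were called and 5.66% had an unadjusted p under 0.05 (1.96% higher and 3.7% lower), against 0 members, and 13% of all genes had groups without overlap, against 0 of 10 members. The median of the members was 0.36 without surgery replicate 3, with 10 of 10 higher, and -0.04 without Maresin 1 replicate 1, with 3 of 10 higher. With median scaling 5 of 10 were higher, at a median of 0.00793 against -0.0887 over all genes, and with no normalisation 9 of 10 were. Dentate granule neuron markers were higher in 13 of 14, with a median of 0.212 and none past the adjusted threshold. CA1 markers were lower in 8 of 9, with a median of -0.134, and none of them passed either. Both comparisons with control share the control arrays, and the comparisons with surgery share the surgery arrays, so the 3 sets of differences are not independent. In the F test over the 3 groups, the smallest adjusted p of a member was 0.720, for Fos, while 0% of all genes passed and 8.85% had an unadjusted p under 0.05.

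**Figure D5:**
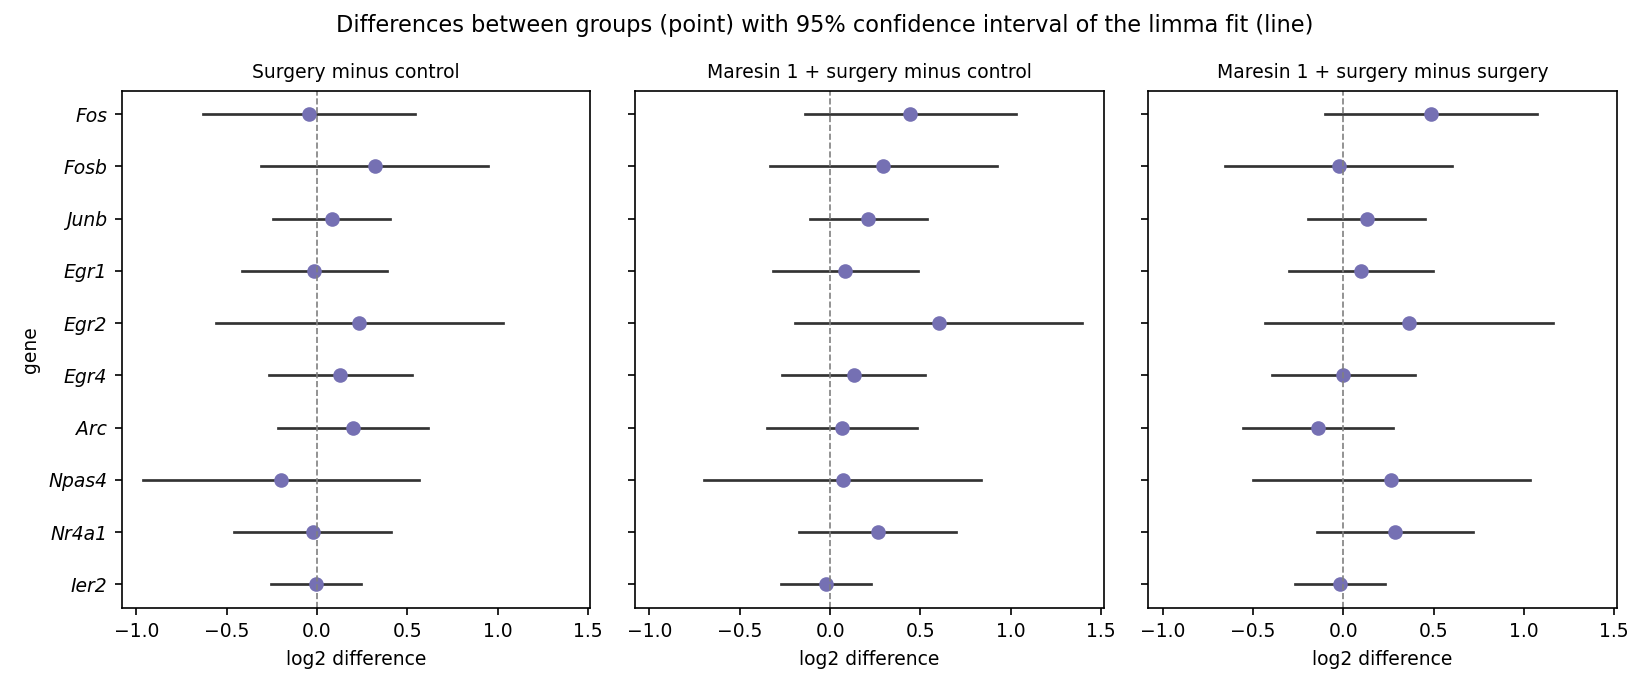
Log2 difference between groups for each of the 10 genes (points) with the 95% confidence interval of the limma fit (lines), for surgery minus control, Maresin 1 with surgery minus control, and Maresin 1 with surgery minus surgery. All 30 intervals include 0. The widest belong to Egr2 and Npas4 and the narrowest to Ier2.

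Other rapid early genes were taken from a list of 31, of which 28 were measured, with Nr4a2, Dusp1, Klf and Gadd45 genes among them. None passed the adjusted threshold in any comparison. After surgery 22 of 28 were higher than in control, with a median of 0.12, and 6, all higher, had an unadjusted p under 0.05, where 3.9% of all genes were higher at that level. Klf10, a zinc finger factor induced by TGF-beta, was at 8.27, 7.97 and 8.28 in control, 8.49, 8.53 and 8.63 after surgery, and 8.24, 8.26 and 8.27 with Maresin 1. The surgery arrays lay above both other groups, with a difference from control of 0.37 (SE 0.09, adjusted p = 0.534 by limma) and of -0.29 between Maresin 1 and surgery (adjusted p = 0.859). Klf4, known for its part in vessel walls and growth arrest, was at 6.78, 6.63 and 6.65 in control, 6.91, 7.03 and 7.21 after surgery, and 6.96, 6.88 and 6.75 with Maresin 1. Its surgery difference was 0.37 (SE 0.10, adjusted p = 0.630). Against the single control replicate 1 the surgery differences of Klf10 and Klf4 were both 0.28. Ier5l differed by 0.25 and the stress gene Gadd45b by 0.29 between surgery and control, each without overlap.

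These 4 genes were named because their p was among the smallest of the list in a comparison, which favours groups without overlap. Of the 28 genes of the list, 6 had no overlap between surgery and control, where 11.5% of all genes had none. Klf10 hardly varied within the Maresin 1 group, from 8.24 in replicate 1, where the members were highest, to 8.27 in replicate 3. Of the endothelial markers, 16 of 16 measured stood higher after surgery, with a median of 0.34, where 58.4% of all genes did. None passed the adjusted threshold (smallest adjusted p = 0.441 by limma), and 13 had an unadjusted p under 0.05. Their score ran from -0.23 to -0.17 in control and from 0.11 to 0.17 after surgery. In the Maresin 1 arrays the endothelial score was 0.24, -0.12 and 0.10. The part of the vessel markers in the values of the early genes was not tested. Jun, the AP-1 partner of Fos, was at 10.42, 10.60 and 10.57 in control, 10.58, 10.60 and 10.80 after surgery, and 10.80, 10.92 and 10.70 with Maresin 1. Its Maresin 1 arrays did not overlap with control, at a difference of 0.27 (SE 0.07, adjusted p = 0.174). Gadd45g differed by 0.26 in the same comparison, and Egr3, the remaining Egr gene, by -0.03, and by -0.14 between Maresin 1 and surgery.

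Delayed activity-regulated genes encode the proteins that carry a burst of firing into lasting change, such as neuropeptides, growth factors and phosphatases that end ERK signalling. Of 29 measured out of 30, none passed the adjusted threshold, and the median difference was 0.05 for surgery, -0.01 for Maresin 1 against control and -0.04 for Maresin 1 against surgery. Vgf, a neuropeptide precursor, had the smallest p, at 9.80, 9.48 and 9.54 in control, 9.48, 9.49 and 9.53 after surgery, and 9.08, 9.31 and 9.13 with Maresin 1. Its Maresin 1 arrays lay below all others, at -0.43 against control (SE 0.08, adjusted p = 0.0829 by limma) and -0.33 against surgery (adjusted p = 0.859). Without control replicate 1 the difference from control was -0.34 (adjusted p = 0.0446), and over all alternatives its adjusted p ran from 0.0446 to 1. Against the single control replicate 1 the difference was -0.62. Within the Maresin 1 group Vgf was lowest in replicate 1, where the members were highest. The kinase gene Pim1 differed by 0.23 between surgery and control and by -0.31 between Maresin 1 and surgery. Rgs2, a brake on G protein signalling, differed by 0.25 between Maresin 1 and control, and Pcsk1, the prohormone convertase, by 0.26 between surgery and control. Nrn1 and Spry4 differed by -0.10 and -0.21 between Maresin 1 and surgery.

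Upstream factors and kinases differed by small amounts. Of 22 genes measured out of 30, none passed, and all differences lay between -0.17 and 0.18. Groups did not overlap for 6 of 22 between surgery and control, 7 between Maresin 1 and control, and 5 between Maresin 1 and surgery. Over all genes these shares were 11.5%, 14.3% and 13%. Map2k1, the kinase that activates ERK, differed by 0.16 after surgery (SE 0.05, adjusted p = 0.640) and by 0.17 with Maresin 1 (adjusted p = 0.194), both against control. Map2k2, its near relative, differed by -0.13 between Maresin 1 and control, and the SRF coactivator gene Mrtfa by -0.13. Elk1, an SRF partner, differed by -0.17 and the CREB coactivator gene Crebbp by -0.09 after surgery. Ppp3ca, the calcineurin catalytic subunit, and Mef2d differed by 0.09 and -0.10 between Maresin 1 and control. Srf itself differed by 0.10, -0.05 and -0.14 in the 3 comparisons, in the order surgery and Maresin 1 against control, then Maresin 1 against surgery. The score of this list stayed within -0.02 and 0.03 in all 9 arrays, while that of the members ran from -0.45 to 0.48. In such a mean over 22 genes, higher and lower genes offset each other.

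Partners and repressors of the member proteins, 14 of 14 measured, also held 0 genes past the threshold. With Maresin 1, 12 of 14 were lower than after surgery alone, with a median of -0.06. Over all genes 41.7% were higher in that comparison, with a median of -0.02. Rxra and Rxrb, nuclear receptors that pair with Nr4a1, differed by -0.25 (SE 0.09) and -0.19 (SE 0.07) there, each at adjusted p = 0.859 by limma. Nab2, a corepressor of Egr proteins that they themselves induce, differed by 0.10 after surgery and by -0.04 between Maresin 1 and surgery. Atf3, a stress-induced AP-1 member, differed by 0.25 after surgery, at a mean level of 6.05, close to background.

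The 8 genes outside the members whose values over the 9 arrays were most like the member score were Plk3, Vcl, Thbs4, Olfml2b, Carhsp1, Dusp6, Ackr3 and Per1. Pearson r with the score ran from 0.85 for Plk3, a kinase induced by growth signals, to 0.80 for Per1, a clock gene that CREB also induces. Dusp6, the phosphatase that removes ERK activity, had an r of 0.83 and was at 9.99, 9.72 and 9.51 in control, 9.78, 9.78 and 10.08 after surgery, and 9.95, 9.74 and 9.88 with Maresin 1. Like the members it was highest in control replicate 1, surgery replicate 3 and Maresin 1 replicate 1 of their groups. Of the 2740 genes that varied enough to be ranked, 33 had an r over 0.7, or 1.2%, and among 36 such genes of the pathway lists there were 6, or 16.7%. These were Plk3, Dusp6, Per1, Nr4a2, Dusp5 and Klf2. The ranking chose these genes, so their r is a description over 9 arrays and was not tested.

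The list scores set beside the members show where the pattern was shared. The other rapid early genes scored -0.03, -0.14 and -0.08 in control, -0.03, 0.08 and 0.14 after surgery, and 0.16, 0.01 and -0.11 with Maresin 1, with their peaks in the same 3 arrays. The delayed genes peaked in control replicate 1 and surgery replicate 3, at 0.11 and 0.18, while in the Maresin 1 group replicate 1 stood at -0.01 and replicate 2 at 0.01. CA1 pyramidal neuron markers had their group peaks in the same 3 arrays, over a narrower range. They scored 0.05, -0.09 and -0.00371 in control, 0.07, 0.05 and 0.09 after surgery, and 0.02, -0.16 and -0.03 with Maresin 1. Endothelial and microglial markers peaked in replicate 1 of the Maresin 1 group, at 0.24 and 0.14, but not in surgery replicate 3. Dentate granule neuron markers were lowest of all in control replicate 1, at -0.32, and stood at -0.08 in surgery replicate 3 and 0.05 in Maresin 1 replicate 1. Astrocyte markers were lowest in control replicate 1, at -0.17, and highest in Maresin 1 replicate 1, at 0.18. Choroid plexus markers were at -0.85, -0.67 and -0.65 in the 3 arrays where the members were high. What set these 3 arrays apart for the members was not tested.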

How the data were processed

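Hippocampal RNA, 6 µg of total RNA per sample, was labelled and hybridised to 9 Affymetrix arrays. The deposited intensity values are linear signals per probe set that the authors made in Affymetrix Expression Console, a tool named in the submitters' processing notes. Which version and summary method they used is not given in the sources used here. Array medians differed, so the values were quantile normalised and log2(value + 16) was taken. Of 35556 probe sets 21218 named 1 gene, 1881 several and 12457 none in the platform annotation, and the probe set with the highest mean stood for each of 18820 genes. One limma 3.58.1 model (R 4.3.3) with a mean-variance trend was fitted over all 9 arrays, with Benjamini-Hochberg adjustment over all genes. The fit was checked on simulated data, with log2 differences of known size put into 50 genes per size between surgery and control. It called 44% of these genes at 0.3, 74% at 0.5 and 98% at 1, and also called 10 unchanged genes. The share for genes as variable as the members was not measured. The number of arrays limits the precision.

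The members, gene lists and tests were chosen with earlier results of these data known. Named genes outside the members are, per list and comparison, up to 3 with the smallest p, and the 8 most like the member score among genes above background with an SD of at least 0.15. The arrays were not paired by replicate number in the main fit. The alternatives were other offsets, normalisations, probe set rules, filters, variance models, array weights, blocks, a choroid plexus covariate and left-out arrays.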

Additional observations from a re-analysis of the deposited data

How the results depend on the processing

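No member passed the adjusted threshold under any alternative, and the lowest adjusted p of a member was 0.122 by limma, for Nr4a1 between Maresin 1 and control without control replicate 1. Of 687 member differences under the alternatives, 83 changed sign. Some alternatives, such as the variance models, cannot change a difference, which holds this count down. Of the 30 member differences of the main fit, 27 changed sign under at least 1 alternative. The number of all genes called between surgery and control was 0, but 37 with median scaling and 42 with no normalisation, and 0 to 169 when 1 array was left out. Between Maresin 1 and control it was 16, but 38 with median scaling, 43 with no normalisation, 0 without the variance trend, 5 with the choroid plexus covariate, 4 with control replicate 1 as the single control (without replicates 2 and 3), 0 with only the 2 groups fitted, and 0 to 245 when 1 array was left out. Median scaling moved the median of all genes to 0.101 between surgery and control, and that of the members to 0.179.

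Same-numbered arrays did not deviate together: their correlations ran from -0.23 to 0.0247 over 9 pairs. This check was a description without a test, and a small effect shared by same-numbered arrays would not show in it. With the replicate block 0 genes were called between Maresin 1 and control, and 0 members in any comparison. The median r between members was 0.707 to 0.877 over 14 alternatives chosen after seeing the data. The causes of these changes were not tested. Ier2 lay below background, which limits what its values show.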
